A study of Oryza sativa with 6 samples.

Results

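H3K27me3 peaks of rice leaves that carry no H3K4ac were examined for the distance to the H3K4ac peaks on either side of them. A peak is a stretch of the genome in which the reads of a ChIP-seq library piled up, as listed by the authors with its position and a score. Of the 12959 H3K27me3 peaks, 10106 shared no base with an H3K4ac peak, and these make up the set described here. The remaining 2853 overlapped H3K4ac by at least 1 bp and have no gap to measure. The possible neighbours were the 25425 H3K4ac peaks. Both lists came from leaves of untreated, greenhouse-grown seedlings of the cultivar Nipponbare at 2 weeks of age, with no mutation or treatment named and 1 library for each of 6 histone marks. Whole leaves mix many cell types, so 2 marks at neighbouring places need not lie on the same chromosome copies. No replicate exists for either mark, read depth and any control library are unknown, and the peak lists name no genome build, so positions are given as listed.

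H3K27me3 is the trimethylation of lysine 27 of histone H3, set by Polycomb repressive complex 2. In plants it lies over developmentally silenced genes and is often confined to the length of single genes. Acetylation of histone H3, here at lysine 4, neutralises the charge of the histone tail and is found around the start of active genes.

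The H3K27me3 list covered 25.8 Mb and the H3K4ac list 33.1 Mb, on 12 chromosomes. The median peak width was 1521 bp for H3K27me3 and 1180 bp for H3K4ac. The lowest score was 50.0 in both lists. The median width of the peaks free of H3K4ac was 1502 bp, with quartiles of 937 and 2435 bp. The rule leaves some close calls on either side of it. There were 120 peaks in the set with an H3K4ac peak less than 100 bp away, and 89 peaks were left out although they shared at most 100 bp with H3K4ac.

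H3K4ac was found close to the H3K27me3 peaks of the set less often than random shifts of H3K4ac gave. Within 2 kb, 76.8% of these H3K27me3 peaks had H3K4ac on 0 sides, 22.0% on 1 side and 1.25% on 2 sides. For comparison, the H3K4ac list was moved against the H3K27me3 list with its widths and spacing kept. All H3K4ac peaks of a chromosome were moved around it by 1 random distance of at least 20 kb. This was done 1000 times, and the H3K27me3 peaks free of overlap were chosen again each time. The means were then 73.1%, 24.7% and 2.26%. A value is called above or below the shifted peaks where it lies outside the central 95% of the 1000 shifts. The share with 0 sides was above them (72.1 to 74.0%), and the shares with 1 side (23.8 to 25.6%) and 2 sides (1.98 to 2.57%) were below them. These ranges compare positions within the 2 libraries and are no test across seedlings.

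The departure was largest, as a ratio, for peaks with H3K4ac on 2 sides. Within 1 kb there were 28 such peaks, or 0.277% (95% Wilson interval 0.192 to 0.400%, counting error only), against 0.513% for the shifted peaks, a ratio of 0.540. Within 2 kb there were 126, or 1.25% (1.05 to 1.48%), and the ratio was 0.551. Within 5 kb there were 865, or 8.56% (8.03 to 9.12%), against 12.6% for the shifted peaks, and the ratio was 0.682. Peaks with an H3K4ac neighbour at close range on 2 sides were thus rare at every distance examined. All 3 shares lay below the range of the shifted peaks.

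For peaks with H3K4ac on 1 side, the result turned with the distance. Within 1 kb the share was 12.1% against 14.1%, and within 2 kb it was 22.0% against 24.7%, both below the shifted peaks. Within 5 kb it was 42.0% (41.1 to 43.0%) against 39.3%, above the range of 38.3 to 40.3%. This excess at 5 kb was not seen when low-scoring H3K4ac peaks were left out, which also makes the H3K4ac peaks sparser. When both lists were limited to scores of 100 or more, the share was 32.1% against 33.1%, inside the range of the shifts. With that limit for H3K4ac alone, chosen after seeing the data, it was 31.4% against 33.1%, below the range. Peaks with no H3K4ac within 1 kb made up 87.6% against 85.4%, and those with none within 5 kb made up 49.4% against 48.2%, both above.

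**Figure D1:**
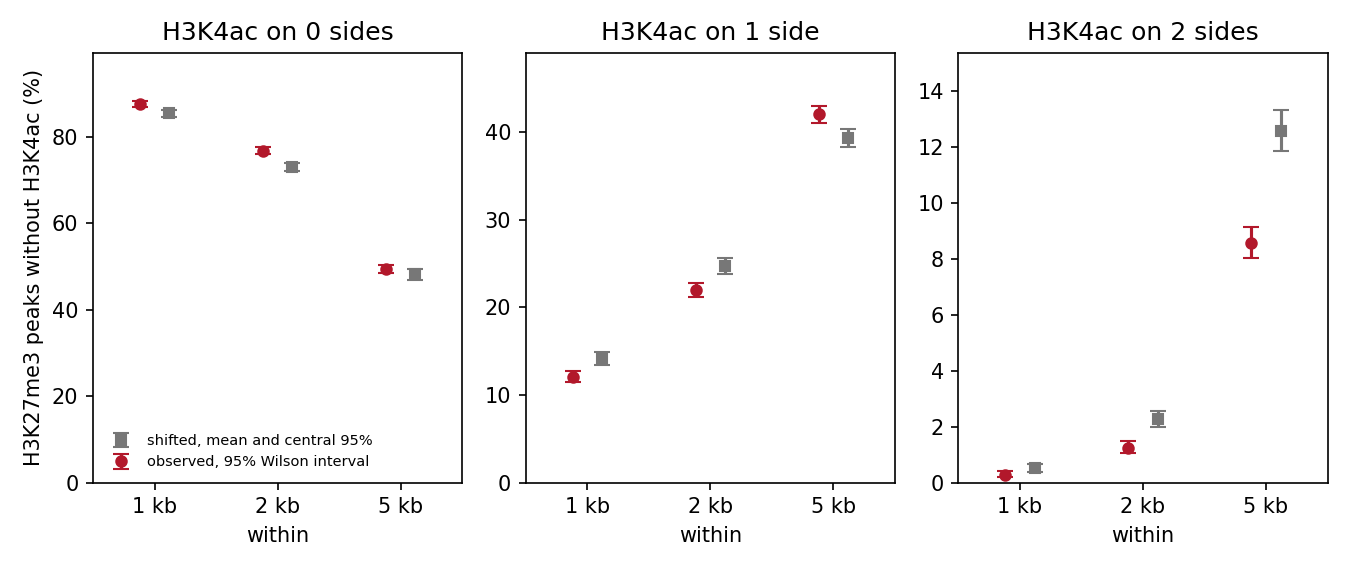
Share of the H3K27me3 peaks without H3K4ac (%) that had an H3K4ac peak within 1, 2 or 5 kb on 0, 1 or 2 sides. Red points are observed shares with 95% Wilson intervals, and grey squares are means of 1000 shifts with their central 95%; the red points for 2 sides lie below the grey ones at each distance (1.25% against 2.26% within 2 kb).

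The sides of the peaks were alike. Within 2 kb, H3K4ac lay on the left of 12.1% and on the right of 12.4% of the peaks, against 14.6% on each side for the shifted peaks. Left and right follow the numbering of the chromosome and have no relation to the strand of a gene. The share on the left was lower by 0.35 percentage points, within the range of the shifts (-0.91 to 0.97). The difference was within that range at 1 kb and 5 kb as well.

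A peak with H3K4ac on one side had it on the other side less often than the shifts gave. The share with 2 sides was divided by the product of the shares with H3K4ac on the left and on the right, a ratio that is 1 when the sides are unrelated. Within 2 kb it was 0.83, below the range of the shifted peaks (0.95 to 1.18). Within 5 kb it was 0.98, and the shifts gave 1.21, so that it was again below the range. Within 1 kb it was 0.69 and within the range, where only 28 peaks had H3K4ac on 2 sides. Among the 2221 peaks with H3K4ac on exactly 1 side within 2 kb, the H3K4ac peak on the other side lay a median of 11330 bp away, with quartiles of 6058 and 21258 bp. The shifted peaks gave a median of 9092 bp (8585 to 9567), so that the far side was farther than the shifts gave.

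The distance itself showed the same pattern in its lower part. The nearer H3K4ac peak lay a median of 4930 bp away, against 4714 bp for the shifted peaks (4526 to 4900). The first quartile was 2179 bp against 1829 bp, above the range, while the third quartile was 10114 bp against 10531 bp, within it. The medians on the left (9828 bp) and on the right (9827 bp) were above the shifted peaks too. The excess of the 3 medians over the shifts is small, with ratios of 1.046, 1.042 and 1.043. All 3 fell inside that of the shifts when H3K27me3 peaks closer than 1 kb to each other were merged, and when a score of at least 100 was required of H3K27me3 only, an alternative chosen after seeing the data.

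In bins of 250 bp, the deficit of H3K4ac lay mostly at short distances. Of the 10 bins up to 2.5 kb, 7 held a smaller share of the sides than the range of the shifted peaks, and none of these 10 held a larger one. The lowest ratio was 0.756, between 1250 and 1500 bp. Directly beside the H3K27me3 peak, at under 250 bp, the share was 1.64% of the sides against 1.93% for the shifted peaks. That ratio of 0.851 was not the lowest, so the deficit was not deepest in the nearest bin. Between 2.5 and 4 kb, 5 of 6 bins were within the range and 1 below it. Of the 24 bins from 4 to 10 kb, 5 were above the range, 19 within it and 0 below it. The 40 bins were not adjusted for their number.

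**Figure D2:**
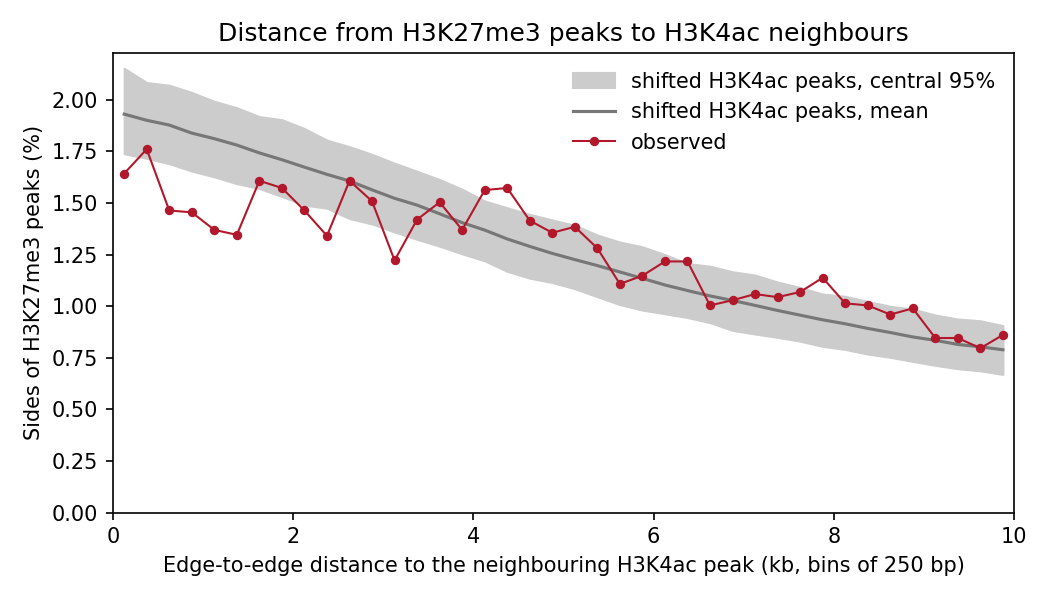
Share of the sides of H3K27me3 peaks (%) by edge-to-edge distance to the neighbouring H3K4ac peak (kb, bins of 250 bp, left and right pooled). The red line is observed, the grey line and band are the mean and central 95% of 1000 shifts; the red line runs under the band in 7 of the 10 bins up to 2.5 kb and above it in 5 of the 24 bins from 4 kb.

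The same result appears when it is read from the H3K4ac side. The 25425 H3K4ac peaks left 25413 gaps between successive peaks, with a median length of 8187 bp and quartiles of 4456 and 16586 bp. Of these gaps, 5967 held at least 1 H3K27me3 peak without H3K4ac, fewer than after shifting (mean 6270, range 6181 to 6355). Long gaps held most of the H3K27me3 peaks. Gaps of 20 kb or more held 6346 of them (62.8%), gaps of 10 to under 20 kb held 2606, gaps of 5 to under 10 kb held 957, gaps of 2 to under 5 kb held 187 and gaps under 2 kb held 7. This split was not set against the shifts. The 4933 gaps of 20 kb or more were occupied about as often after shifting (59.4%) as observed (60.4%).

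Short gaps were emptier than the shifts gave, and long gaps about as full. An H3K27me3 peak lay in 3.49% of the gaps of 2 to under 5 kb (3.03 to 4.03%), against 6.10% for the shifted peaks, a ratio of 0.573. The gaps under 2 kb were too rarely occupied to tell, with 0.304% against 0.559%, within the range. In gaps of 5 to under 10 kb the share was 12.01% against 15.96%, a ratio of 0.753. Both shares were below the range of the shifted peaks. In gaps of 10 to under 20 kb the share was 33.5% against 32.2%, above the range with a ratio of 1.039. This last excess turned to 0.965 when a score of at least 100 was required of H3K4ac only and to 0.924 with the highest-scoring 50% of each list. In gaps of 20 kb or more the share was 60.4% against 59.4%, within the range.

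**Figure D3:**
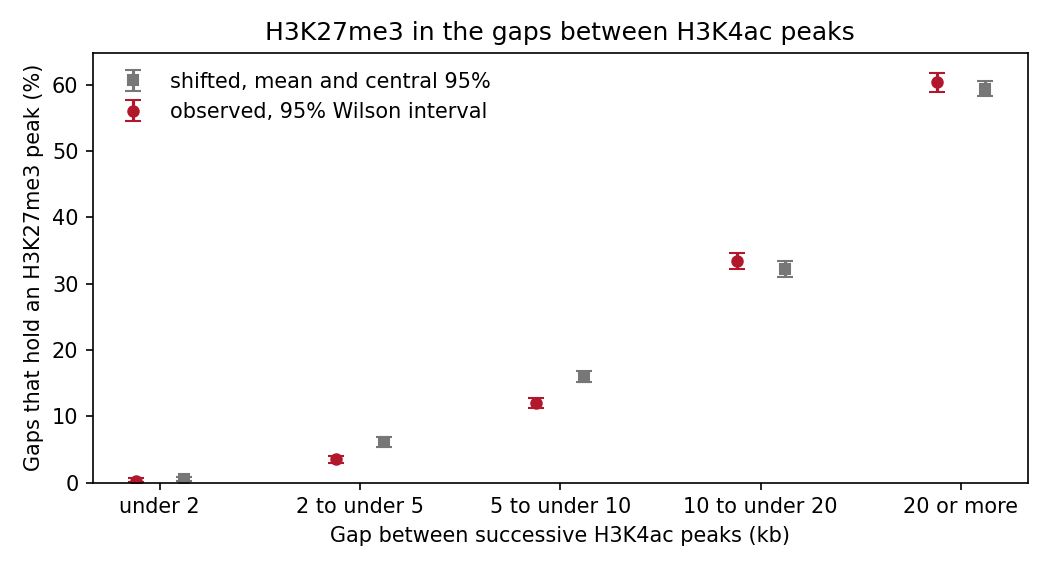
Share of the gaps between successive H3K4ac peaks (%) that held at least 1 H3K27me3 peak, by gap length (kb). Red points are observed with 95% Wilson intervals and grey squares are means of 1000 shifts with their central 95%; the red points lie below the grey ones in gaps of 2 to under 5 kb (3.49% against 6.10%) and 5 to under 10 kb (12.01% against 15.96%).

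Within a gap, the median position of the H3K27me3 peaks was close to that of the shifted peaks. The position was measured as the shorter of the 2 distances in percent of their sum, which is 0 at an H3K4ac peak and 50 in the middle of the gap. The median over all peaks between 2 H3K4ac peaks was 25.4, against 25.01 for the shifted peaks (24.5 to 25.5). It was also within the range in gaps of 2 to under 5 kb (23.7), of 5 to under 10 kb (26.1) and of 20 kb or more (24.8). In gaps of 10 to under 20 kb it was 26.7, above the range of 24.0 to 25.9, which is a shift toward the middle by 1.68 percentage points. This measure was added after the distances had been seen.

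Many H3K27me3 peaks shared their H3K4ac neighbours. Of the gaps with an H3K27me3 peak, 3563 held 1 and 2404 held 2 or more, and the latter contained 64.7% of the set. The most in 1 gap was 13. After shifting, the means were 6270 occupied gaps and 4000 gaps with 1 peak, so many gaps were shared there too. The share of 64.7% was not set against the shifts. In gaps of 20 kb or more, each gap that was occupied held 2.13 peaks on average against 2.08 for the shifted peaks, above the range. Peaks of 1 gap are not independent of each other, and the Wilson intervals do not take this into account. Going outward from an H3K27me3 peak, the next listed peak was H3K4ac rather than a further H3K27me3 peak on 52.9% of the sides, against 56.3% for the shifted peaks (55.4 to 57.2%). Neighbouring H3K27me3 was thus met first more often than the shifts gave.

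Wide H3K27me3 peaks lay farther from H3K4ac than narrow ones. There were 2835 peaks under 1 kb, 3755 of 1 to under 2 kb, 2571 of 2 to under 4 kb and 945 of 4 kb or more. The median distance to the nearer H3K4ac peak was 4509 bp in the narrowest class, 4774 bp in the next, 5237 bp in the third and 6094 bp in the widest. Wide peaks can be free of overlap only in long gaps, so each class was set against the same class after shifting. The narrowest class (4603 bp after shifting) and the next (4674 bp) were within the range, whereas the third (4774 bp) and the widest (5215 bp) were above it. The class of 1 to under 2 kb was above the range under 3 alternatives, with ratios of 1.094 for local shifts of 20 to 100 kb, 1.136 when only an overlap of 50% of the shorter peak excluded a peak and 1.09 with scores of 100 or more for H3K4ac alone. The widest exceeded the narrowest by 1585 bp, more than the 612 bp that shifting gave (-29.6 to 1275).

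The width classes also differed in the share with no H3K4ac within 5 kb. It was 45.9% in the narrowest class and 56.6% in the widest. The difference of 10.8 percentage points was above the 3.85 points of the shifted peaks (-0.10 to 7.68). Within 2 kb the difference was 5.93 points, just above the range (-1.02 to 5.86), and within 1 kb it was 2.86 points and within the range (-1.67 to 3.66). The share with H3K4ac on 1 side within 5 kb was 45.7% in the narrowest and 36.3% in the widest class. In the narrowest class that share was above the shifts (40.0%), and in the widest it was within them (37.8%), and the difference between the classes was below the range of the shifts. The differences in this share within 1 and 2 kb, of -2.79 and -5.82 points, were within the range.

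H3K4ac on 2 sides was below the shifted peaks in every width class within 2 kb and within 5 kb. Within 2 kb it was found at 1.16% of the peaks under 1 kb (33 peaks), 1.28% of those of 1 to under 2 kb (48 peaks), 1.36% of those of 2 to under 4 kb (35 peaks) and 1.06% of those of 4 kb or more (10 peaks). The means of the shifted peaks were 1.87%, 2.21%, 2.75% and 2.57%. For peaks under 1 kb the share came within the range with scores of 100 or more in each list (ratio 0.703) or for H3K27me3 alone (0.831), and with the highest-scoring 50% of each list, where it was 0 and the range started at 0. For peaks of 4 kb or more, that last setting gave a ratio of 0.810, within the range, instead of 0.411. Within 5 kb, it brought the share of peaks under 1 kb within the range as well (0.460). The widest differed from the narrowest by -0.11 percentage points, within the range of the shifts (-0.34 to 1.94). Within 1 kb, where the classes held 2 to 10 such peaks, the share was within the range of the shifts in the 2 narrower classes and below it in the 2 wider ones.

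**Figure D4:**
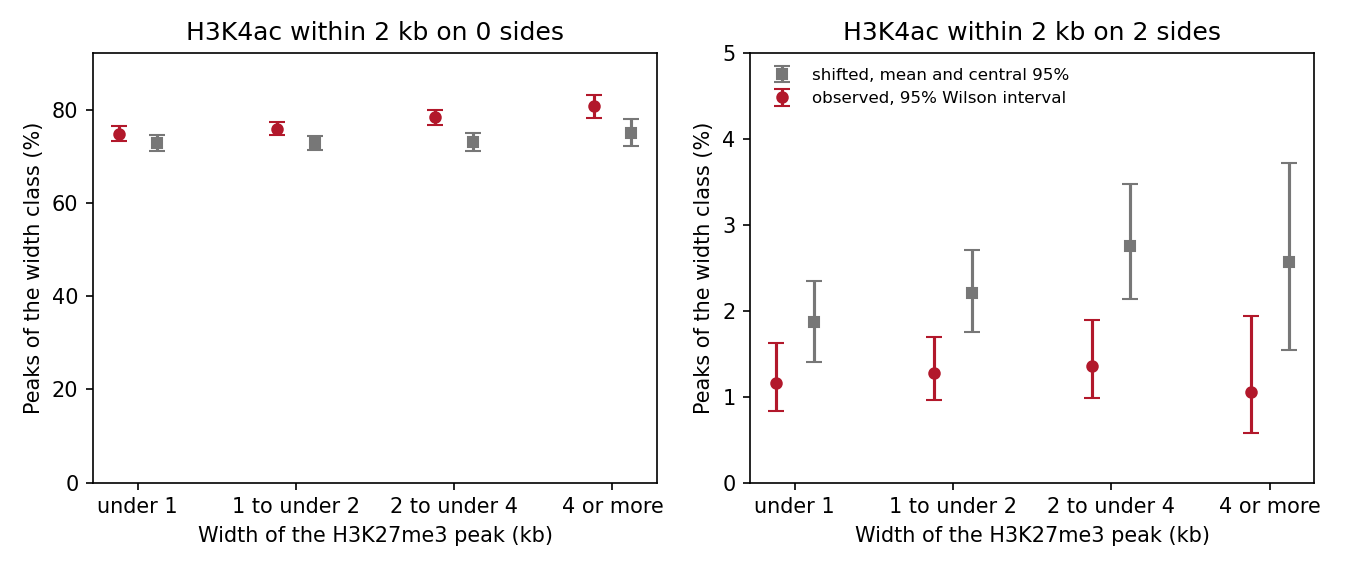
Share of the H3K27me3 peaks of each width class (%) with H3K4ac within 2 kb on 0 sides (left) or 2 sides (right). Red points are observed with 95% Wilson intervals and grey squares are means of 1000 shifts with their central 95%; with 2 sides all 4 red points, between 1.06% and 1.36%, lie below the grey ranges.

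The width also went with whether a peak was free of H3K4ac at all. Of the H3K27me3 peaks of 4 kb or more, 70.9% shared no base with H3K4ac, compared with 78.8% of those under 1 kb, 79.1% of the next class and 78.3% of the third. The shifted peaks gave fewer free wide peaks and more free narrow ones. The number of free peaks was 945 against 793 (756 to 830) in the widest class and 2835 against 3105 (3064 to 3147) in the narrowest. The total of 10106 was inside the range that the shifts gave (mean 10189).

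The chromosomes differed in level but not in direction. The share with H3K4ac on 2 sides within 2 kb ranged from 0.437% on chromosome 11 to 1.90% on chromosome 3. On all 12 chromosomes it was lower than the mean of the shifts of that chromosome, and on 7 it lay below their range. The ratio ran from 0.275 on chromosome 11 to 0.919 on chromosome 4, where the share of 1.82% was close to the shifted 1.98%. The share with 0 sides was higher than the mean of the shifts on all 12 chromosomes, with ratios of 1.018 to 1.086, and above their range on 7. With the highest-scoring 50% of each list, the share with 2 sides was below the range on 1 chromosome, although its ratios were 0 to 0.543. In that setting the range of the shifts started at 0 on 9 chromosomes, where no share could fall below it, and the share with 0 sides was above the range on 10.

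**Figure D5:**
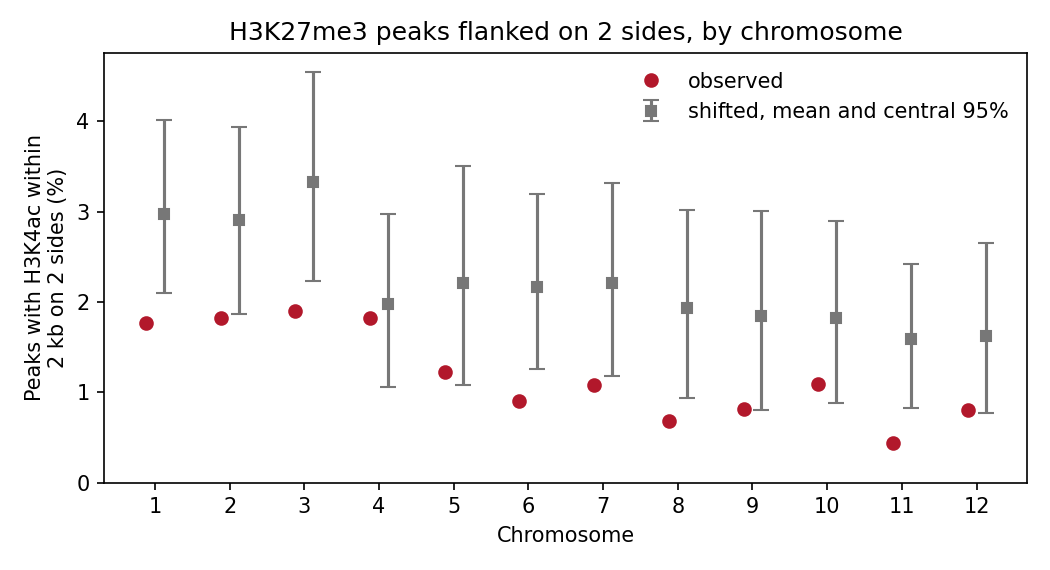
Share of the H3K27me3 peaks without H3K4ac (%) that had an H3K4ac peak within 2 kb on 2 sides, for each of the 12 chromosomes. Red points are observed and grey squares are means of 1000 shifts with their central 95%; every red point is lower than its grey square, and on chromosome 4 they nearly meet (1.82% against 1.98%).

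The H3K4ac peaks that did lie close to H3K27me3 had lower scores than the shifts gave. There were 2360 H3K4ac peaks within 2 kb of an H3K27me3 peak of the set, against 2791 after shifting (2690 to 2884). Their median rank by score in the H3K4ac list was at the percentile 44.7, below the range of the shifted peaks (50.1 to 53.6). Their median width of 1170 bp was within the range. Of the 2360, 382 lay on another H3K27me3 peak and had a median percentile of 23.7. The other 1978 had a median percentile of 48.3 (quartiles 23.9 and 73.4), compared with 53.6 (28.3 and 77.0) for the 20600 H3K4ac peaks that were farther away and free of H3K27me3.

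Fewer of the close H3K4ac peaks carried H3K27ac, an acetylation of active promoters. It was listed at 27.5% of the 2360, below the range of the shifted peaks (33.6 to 36.8%). H3K9ac, a further mark of active genes, was listed at 84.4% of them, also below the range (86.3 to 88.5%). Without the peaks that lie on H3K27me3, the shares were 29.1% (27.2 to 31.2%) for H3K27ac and 85.5% (83.9 to 87.0%) for H3K9ac. At the 20600 H3K4ac peaks farther away they were 37.2% (36.6 to 37.9%) and 89.1% (88.6 to 89.5%). The lower score and the lower share with H3K27ac moved together, and the part of the score in these shares was not tested.

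The H3K27me3 peaks of the flanking classes were set side by side in what the rule did not use. The median score was 207 for peaks with H3K4ac on 0 sides within 2 kb, 214 for those with 1 side and 277 for the 126 with 2 sides. The quartiles overlapped widely, from 102 to 412 for 0 sides and from 127 to 497 for 2 sides. An H3K9ac peak was listed on 12.1% of the peaks with 0 sides (11.4 to 12.8%), on 8.56% with 1 side (7.46 to 9.79%) and on 4.76% with 2 sides (2.20 to 10%). An H3K27ac peak was listed on 2.77% (2.43 to 3.16%), on 1.26% (0.874 to 1.82%) and on 0 of 126 (0 to 2.96%). Both acetylation marks were thus listed less often on peaks with 1 side than on those with 0 sides. The peaks with 1 side were also narrower, with a median of 1397 bp against 1540 bp for 0 sides. Those with 2 sides had a median of 1546 bp. These shares were not set against shifted peaks, and the part of the width in them was not tested. Being free of H3K4ac therefore did not mean being free of acetylation, as 1134 of the 10106 peaks (11.2%) carried H3K9ac and 243 (2.41%) H3K27ac. H3K9me1 and H3K9me3, methylation marks of lysine 9, were listed on 1.81% and 2.33% of the peaks. No test was made between these classes.

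Places were taken by score, width or distance from the lists, 3 for each kind. The highest-scoring H3K27me3 peak with H3K4ac within 1 kb on 2 sides was chr1:42238004-42240364, with a score of 1016. It lay 238 bp from H3K4ac on the left and 98 bp on the right. The next were chr2:27357766-27359772, with 419 and 536 bp, and chr2:33491518-33492952, with 122 and 135 bp. These 3 peaks were 1435 to 2361 bp wide, and each was wider than the sum of its distances to H3K4ac. None of the 3 carried a further mark.

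Among peaks with H3K4ac within 1 kb on 1 side and beyond 5 kb on the other, the highest scores were at chr5:27284035-27286775 (score 1411), chr7:24512097-24514669 (1403) and chr4:19942960-19946533 (1396). The first lay 70 bp from H3K4ac on the right and 28995 bp from it on the left. The others had 834 and 524 bp on the near side and 9121 and 16124 bp on the far side. With no H3K4ac within 5 kb, the highest scores were at chr8:24567438-24568808 (1543), chr3:3388061-3391180 (1446) and chr8:19348973-19350898 (1445). Their nearer H3K4ac peaks were 5098, 9734 and 8193 bp away. The strongest peaks with H3K4ac on 2 sides thus had lower scores than the strongest with 1 or 0 sides. They come from a group of 28, so a lower maximum is not a difference between the groups.

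The 3 widest peaks had low scores. They were chr7:10351740-10360717 (8978 bp, score 69.7), chr7:5402547-5411478 (8932 bp, 74.5) and chr3:29231566-29240453 (8888 bp, 68.5), at the percentiles 11.6, 13.7 and 11 of the list. The one on chromosome 3 lay 3830 bp from H3K4ac on the right and carried H3K9ac, and the first one on chromosome 7 carried H3K27ac. The 3 peaks farthest from any H3K4ac shared 1 gap on chromosome 9, at chr9:4775251-4778753, chr9:4768517-4769473 and chr9:4767344-4768022. H3K4ac was 130570, 123836 and 122663 bp away from them on the nearer side. The score of the first was 685 and of the others 129 and 76.8.

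The short-range deficit was seen with other acetylation marks in place of H3K4ac. For the 9747 H3K27me3 peaks free of H3K9ac, an H3K9ac peak lay within 2 kb on 2 sides of 1.34%, against 2.25% for the shifted peaks, a ratio of 0.598. For the 12171 free of H3K27ac, whose list is shorter with 9309 peaks, it was 0.0329% (4 peaks, 0.0128 to 0.0845%) against 0.249%, a ratio of 0.132. Both were below the range. With scores of 100 or more, H3K27ac lay on 2 sides of 0 of 9769 peaks (0 to 0.0393%). The range of the shifts then started at 0, so that no share could fall below it. Most H3K4ac peaks also carried H3K9ac, so this is not a separate result for H3K9ac.

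The methylation marks of lysine 9 stood on the other side of the shifts. H3K9me1 peaks free of H3K4ac (4519) had H3K4ac within 2 kb on 2 sides of 3.43% (2.94 to 4.001%), against 1.91% for the shifted peaks, a ratio of 1.80. H3K9me3 peaks free of H3K4ac (2476) had it at 5.82% (4.96 to 6.81%) against 2.57%, a ratio of 2.27. Both were above the range, and the median distance to the nearer H3K4ac peak was shorter than after shifting, at 2965 bp for H3K9me1 and 3154 bp for H3K9me3, compared with 4930 bp for H3K27me3. When every list was limited to scores of 100 or more, 720 H3K9me1 and 8872 H3K27me3 peaks free of H3K4ac were left. The ratio was then 2.39 for H3K9me1 and 0.367 for H3K27me3, still outside the ranges. For H3K9me3 only 100 peaks were left, 1 of them with 2 sides, and that share was within the range. Their share with 1 side (34% against 17.6%) was above it, and their share with 0 sides (65% against 81.2%) and nearer median (4307 against 7529 bp) were below it. The difference between the marks was not tested, as each has 1 library and its own shifts.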

How the data were processed

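Per the labels, chromatin was immunoprecipitated from leaves of 2-week-old seedlings, and Bowtie is named for the reads. The deposited lists name MACS 1.4, and the score of each peak is the authors' own value, used here for ranks and a minimum only; its scale, settings, versions of the aligner, control library and build of these lists are not given in the sources used here; the study names a TIGR rice release for its gene annotation. Starts were read as counted from 0 and are printed from 1. Distances are base pairs between facing edges. H3K27me3 peaks sharing at least 1 bp with H3K4ac were left out, and those with an H3K4ac peak on both sides entered the gap measures (10103 of 10106). All H3K4ac peaks of a chromosome were shifted together, by 1000 random distances of at least 20 kb; chromosome length was taken from the highest peak end over the 6 lists. No p-value was computed. The count was tested on simulated lists with known placement. Precision is limited by peak numbers, as depth is unknown, and intervals of shares are 95% Wilson intervals. The 15 places follow a rule on score, width and distance, and no gene is named because the lists give none. Alternatives changed the minimum score, the overlap, merging, the shifts and the peaks counted; limits on the score of 1 list and the position in gaps were added after seeing the data. The members and classes were chosen with earlier results of these data known. Python 3.11.15, numpy 2.4.6, scipy 1.17.1 and matplotlib 3.10.9 were used.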

Additional observations from a re-analysis of the deposited data

How the results depend on the processing

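Values here are ratios of the observed value to the mean of the shifted peaks. With local shifts of 20 to 100 kb, those of the 18 main results that were set against a range kept their place. The counts of chromosomes above the shifts with 0 sides and below them with 2 sides each rose from 7 to 10. The shares with 2 sides within 1, 2 and 5 kb stayed below the shifts under every alternative, except within 1 and 2 kb in the one that counts overlapping peaks. With merged H3K27me3 peaks, the median distances (nearer 1.037, left 1.035, right 1.037) and the share with 0 sides within 5 kb (1.02) came within the range of the shifts, and that share turned to 0.999 for widths of 1 to under 2 kb. The same 4 results came within the range with that minimum of 100 for H3K27me3 only, which like the minimum for H3K4ac only was chosen after seeing the data (1.032, 1.013, 1.031 and 1.019), and at widths of 1 to under 2 kb the nearer median (0.997) and the share with 0 sides within 5 kb (0.987) turned.

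The share with 1 side within 5 kb turned to 0.971 with scores of 100 or more in each list, to 0.913 with the highest-scoring 50% of each list and to 0.948 with that score for H3K4ac only. At widths of 1 to under 2 kb it was 0.985, 0.932 and 0.946, and at 2 to under 4 kb 0.948, 0.891 and 0.930, in the same order. The share with 0 sides within 5 kb of peaks under 1 kb turned to 1.006, 1.014 and 1.05. With the highest-scoring 50%, the median on the right (1.028) came within the range. Gaps of 10 to under 20 kb turned to 0.924 with the highest-scoring 50% and to 0.965 with the score for H3K4ac only. The nearer median of peaks under 1 kb turned to 1.045 when only an overlap of 50% of the shorter peak excluded a peak, 1.02 with local shifts and 1.053 with the score for H3K4ac only. At that overlap the ratio of sides within 1 kb was 0.829, below the range. Chromosomes below the shifts with 2 sides numbered 11 at that overlap, 1 with the highest-scoring 50%, where the ratios were 0 to 0.543 and 9 of the ranges started at 0, and 2 with all H3K27me3 peaks; those above with 0 sides numbered 12 at that overlap, 11 with the score for H3K4ac only and 4 with all peaks.

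Counting all H3K27me3 peaks puts overlapping peaks at a distance of 0 on 2 sides by construction, in the observed and the shifted lists alike. The share with 2 sides was then 1.021 within 1 kb and 0.993 within 2 kb, the ratio of sides 1.049, 1.077 and 0.985 within 1, 2 and 5 kb, and the share with 0 sides within 5 kb 1.018. Shares with 2 sides turned at widths under 1 kb (1.521, 1.442 and 1.132 within 1, 2 and 5 kb), at 1 to under 2 kb (1.128 and 1.088 within 1 and 2 kb) and on chromosomes 4 (1.172), 5 (1.025), 8 (1.019), 9 (1.054), 10 (1.135), 11 (1.156) and 12 (1.227). Shares with 0 sides turned at widths under 1 kb (0.931 and 0.940 within 1 and 2 kb), at 1 to under 2 kb (0.988 and 0.980 within 1 and 5 kb) and on chromosomes 4 (0.978) and 12 (0.979). The share with 1 side within 5 kb turned at 4 kb or more (1.138). The cause of the changes under these alternatives was not tested. No paired analysis was possible because each mark has 1 library. Depth is unknown, so how many peaks each library could list is unknown too.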
